A study of Mus musculus with 30 samples.

Results

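The 9 genes described here encode the enzymes that make, recycle and break down the deoxynucleotides from which DNA is built. They are Rrm1, Rrm2 and Rrm2b, the subunits of ribonucleotide reductase; Dctd, Dut and Tyms, which lead to thymidylate; the salvage kinases Tk1 and Dck; and Samhd1, a hydrolase of deoxynucleotides. They were chosen by symbol from a table of 46078 genes, and all 9 were matched. RNA had been sequenced from the mouse myoblast line C2C12, precursors of skeletal muscle, dividing in medium with 20% fetal bovine serum. After 15 min of staining with the DNA dye Hoechst, a sorter divided the cells by phase (G1, S, G2/M). The labels name no other treatment and no altered gene. Each phase had 2 columns of fragment counts, numbered as replicates in the titles, but no label speaks of separate cultures. A lot is marked in the titles of S alone, and its share in any difference of S from the other phases cannot be told apart from that of the phase.

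The 6 columns held 16109055 to 18103769 fragments each. The 2 columns of a phase differed little beyond counting noise: chi-square divided by its degrees of freedom was 1.00, 1.03 and 1.15 in G1, S and G2/M. They were therefore added and counted as 1 library per phase, which leaves no replicates, no test and no p-value for any difference between phases. Single columns are given below as parts of 1 library, so a lack of overlap between phases does not repeat a difference. The 95% intervals given below cover counting error only. PCR copies are not independent molecules, so the intervals may be too narrow even for that error. Levels are in CPM, the usual depth-scaled count, after TMM scaling. Of 6 myoblast markers, 5 were at 10 CPM or more in each library, while Myod1, which defines the lineage, was at 5.73 to 6.64 CPM. The 6 markers of differentiated muscle summed to 9.23 CPM in the G1 library, 0.167 in S and 11.2 in G2/M. Of 14 markers of other cell types, 9 to 11 were at 0, and the list summed to 111 to 119 CPM, nearly all of it from Runx2 and Pparg. In bulk RNA, fewer cells that express a gene and less of its RNA per cell cannot be told apart.

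Ribonucleotide reductase reduces ribonucleotides to deoxynucleotides and is the entry to the pathway. A large subunit, RRM1, pairs with a small subunit, which is RRM2 in dividing cells or the p53-induced RRM2B. Deoxyuridine monophosphate, made by DCTD and DUT, is methylated to thymidylate by TYMS, and TK1 and DCK instead phosphorylate deoxynucleosides taken up or recovered by the cell. Several genes of the pathway are textbook targets of E2F transcription factors, which act at entry into S phase. The RRM2 and TK1 proteins are also destroyed at set points of the cycle, which RNA counts do not show.

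Promoter sequence is shown for 4 genes that the results below turn on. Rrm1 and Rrm2, the main reductase subunits, had nearly level RNA over the phases. The salvage kinases Tk1 and Dck were 1.65-fold and 3.12-fold lower in G2/M than in G1. Each sequence is the 250 bases before the start site in RefSeq (GRCm38.p6), read 5′ to 3′ on the gene's strand. Capitals mark an E2F word (the letters TTCCCGC or the letters TTGGCGC or the letters TTCGCGC or the letters TTGCCGC) or a CCAAT box, searched on both strands. The windows are chr7:102441445-102441694 (+) for Rrm1, chr12:24708004-24708253 (+) for Rrm2, chr11:117826015-117826264 (-) for Tk1 and chr5:88764763-88765012 (+) for Dck.
Rrm1: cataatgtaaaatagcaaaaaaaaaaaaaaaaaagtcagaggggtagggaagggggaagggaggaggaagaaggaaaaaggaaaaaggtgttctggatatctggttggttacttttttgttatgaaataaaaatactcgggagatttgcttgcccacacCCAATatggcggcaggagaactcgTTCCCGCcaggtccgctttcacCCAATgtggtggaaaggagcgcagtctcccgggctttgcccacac
Rrm2: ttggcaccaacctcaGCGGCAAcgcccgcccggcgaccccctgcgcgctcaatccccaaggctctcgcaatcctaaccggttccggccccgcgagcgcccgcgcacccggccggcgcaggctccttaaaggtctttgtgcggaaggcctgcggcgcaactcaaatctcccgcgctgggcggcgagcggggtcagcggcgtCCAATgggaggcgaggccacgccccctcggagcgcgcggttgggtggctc
Tk1: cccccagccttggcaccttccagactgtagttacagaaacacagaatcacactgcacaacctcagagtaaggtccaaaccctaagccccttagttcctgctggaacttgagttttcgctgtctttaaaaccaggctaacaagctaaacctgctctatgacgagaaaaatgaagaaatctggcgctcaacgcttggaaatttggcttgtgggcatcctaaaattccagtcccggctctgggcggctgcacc
Dck: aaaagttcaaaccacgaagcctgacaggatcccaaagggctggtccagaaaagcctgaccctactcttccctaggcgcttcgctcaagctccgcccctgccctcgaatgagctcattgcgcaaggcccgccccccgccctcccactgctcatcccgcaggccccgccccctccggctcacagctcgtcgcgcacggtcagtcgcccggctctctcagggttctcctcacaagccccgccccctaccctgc

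In the Rrm1 window an E2F word began 67 bases before the start site, between CCAAT boxes at 91 and 45 bases. The Rrm2 window held an E2F word on the other strand at 235 bases and a CCAAT box at 50 bases. Neither word was found in the windows of Tk1 and Dck, nor in those of Tyms, Dut and Samhd1, whose RNA took different courses. A CCAAT box but no E2F word was found for Dctd, in 2 of its 3 windows. GC boxes (GGGCGG) were found at 225 and 75 bases for Rrm2, at 13 bases for Tk1 and at 160, 124, 117, 88 and 16 bases for Dck. Tyms, Dut and Samhd1 had 1 GC box each, and so did the same 2 windows of Dctd. The letters TTTGAA were found for Dck, on the other strand at 245 bases. Of 32851 promoters in the same table, 7.89% held one of the E2F words, 33.8% a CCAAT box, 32.7% a GC box and 15.99% TTTGAA. Entries were found for 8 of the 9 genes, all but Rrm2b. Set against the gene bounds used for counting, the Dut window and the 2 Dctd windows with a match lie wholly inside the gene. Those of Samhd1, Tk1, Dck and Rrm2 lie partly inside it. A match is a string of letters and not a measured site, and a window without one says nothing of the factor.

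The RNA of the reductase subunits and Samhd1 stayed within 1.32-fold over the 3 phases, Dut within 1.31-fold and Dctd within 1.44-fold. Tyms and Tk1 were highest in G1 and lowest in G2/M, by 1.57-fold and 1.65-fold. Dck stood apart, with a level in G2/M 3.12-fold below that in G1 and 2.76-fold below that in S. A gene was counted as different when its levels were at least 2-fold apart and the higher one reached 10 CPM. By that rule 0 of the 9 genes differed between S and G1, where 17.2% of 8773 genes did and 8.59% were lower in S. Between G2/M and S 1 of 9 was lower, Dck, where 6.60% of 8752 genes were lower and 13.7% differed in either direction. Between G2/M and G1 1 of 9 was lower, again Dck, where 9.81% of 8850 genes were lower and 19.8% differed. A share of 1 in 9 is near these backgrounds. At 1.5-fold, 3 of 9 were lower in G2/M than in G1 (Dck, Tk1 and Tyms), beside 19.6% of 8850 genes.

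The fold of a gene scatters less at high levels, and 7 of the 9 genes averaged 50 CPM or more, all but Rrm2b and Dctd. Among all genes at that level, 5.21% of 4225 differed by 2-fold between S and G1, 2.33% of 4212 between G2/M and S, and 6.49% of 4221 between G2/M and G1. The median log2 ratio of the 9 genes was -0.06 in S against G1, -0.20 in G2/M against S and -0.09 in G2/M against G1. Over all genes tested the medians were -0.01, 0.01 and -0.00. The 3 comparisons share libraries, so their values are set side by side and are not independent.

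**Figure D1:**
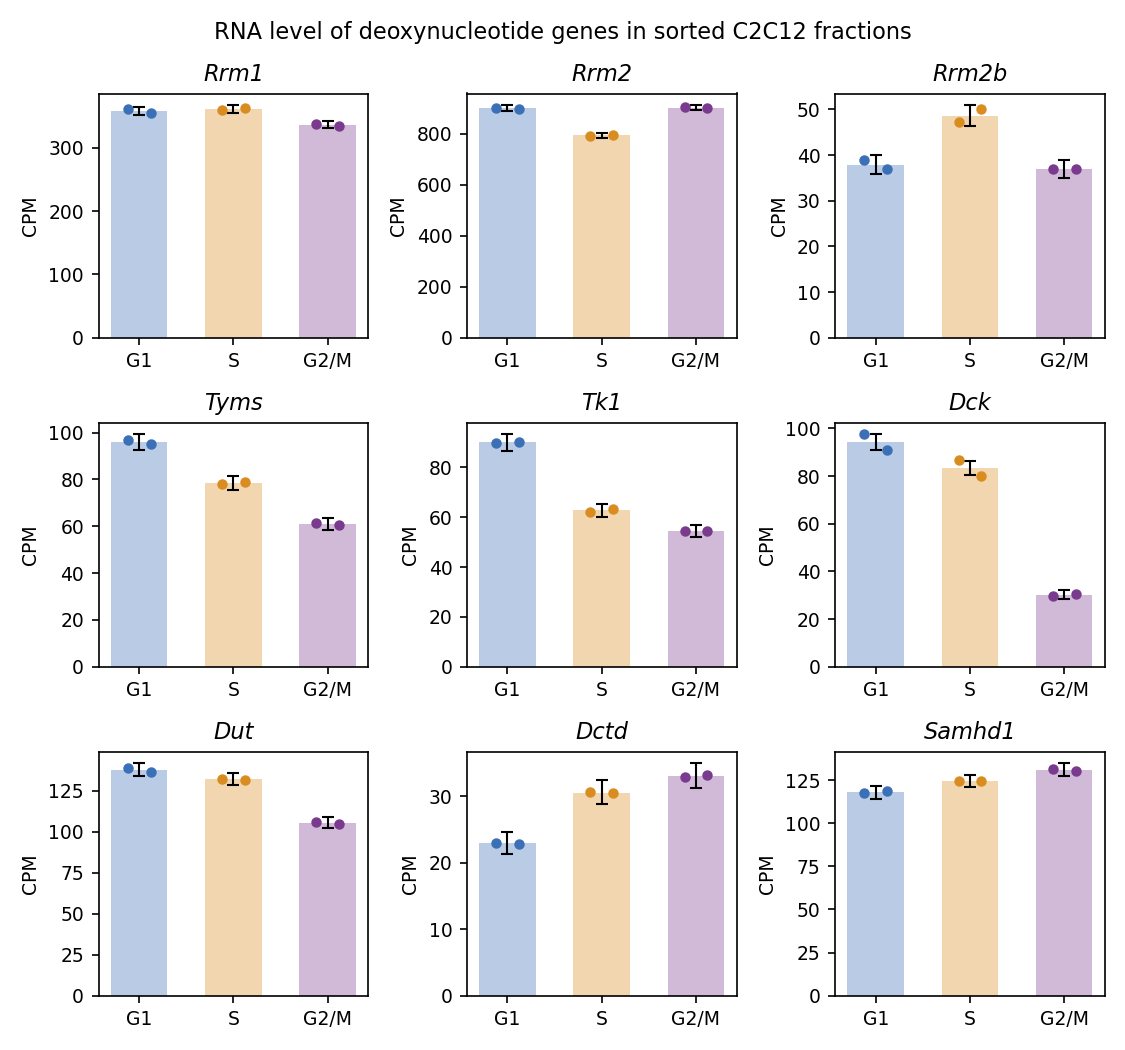
Level of each of the 9 genes in CPM (vertical axes) in G1, S and G2/M, with the 2 columns as points, the summed library as a bar and its 95% counting interval as the error bar. The points of a phase lie close together, Dck reads 83.3 CPM in S and 30.1 in G2/M, and Dctd is highest in G2/M at 33.03 CPM.

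Rrm1 (ENSMUSG00000030978, GRCm38 chr7:102441695-102469771, + strand) encodes the large subunit, which binds the substrate and the regulators of the enzyme. Its columns read 361.1 and 354.9 CPM in G1, 359.4 and 363.2 in S, and 338.3 and 335.3 in G2/M. The G1 and S columns overlapped, and both G2/M columns were below them. In S against G1 the log2 ratio was 0.01 (95% counting interval -0.02 to 0.05), and in G2/M against S it was -0.10 (-0.14 to -0.07). Of the 9 genes, Rrm1 differed least between S and G1.

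Rrm2 (ENSMUSG00000020649, chr12:24708241-24714146, + strand) encodes the small subunit that carries the radical used by the enzyme, and had the highest level of the 9 genes. Its columns read 902.2 and 898.5 CPM in G1, 792.0 and 795.0 in S, and 903.5 and 900.3 in G2/M. Both S columns lay below all others, and the G1 and G2/M columns overlapped. The log2 ratio was -0.18 in S against G1 (-0.21 to -0.16), 0.18 in G2/M against S (0.16 to 0.21) and 0.00 in G2/M against G1 (-0.02 to 0.03). So the S library, whose titles carry the lot mark, had the lowest Rrm2 RNA, by 1.13-fold against G1. Genes at 500 CPM or more had a robust SD (scaled median absolute deviation) of the log2 ratio of 0.32 between S and G1, which is larger than this difference.

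Rrm2b (ENSMUSG00000022292, chr15:37923952-37961318, - strand), the alternative small subunit, had the opposite order. Its columns read 39.0 and 36.9 CPM in G1, 47.2 and 50.0 in S, and 36.9 and 37.0 in G2/M. Both S columns were above the other 4. Against G1, S had a log2 ratio of 0.36 (0.25 to 0.47, 1.28-fold), and against S, G2/M had -0.40 (-0.50 to -0.29). Genes between 20 and 50 CPM had robust SDs of 0.74 and 0.63 in these comparisons. Compared per kilobase of exon, Rrm2 RNA was 55.2 times that of Rrm2b in G1 (52.1 to 58.5), 37.9 times in S (36.1 to 39.8) and 56.7 times in G2/M (53.7 to 59.9). The ratio of Rrm2 to Rrm1 per kilobase was 3.63, 3.17 and 3.86 in G1, S and G2/M, so on this scale the main small subunit was above the large one in every phase.

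Dctd (ENSMUSG00000031562, chr8:48099092-48153233, + strand) deaminates deoxycytidine monophosphate to deoxyuridine monophosphate, the substrate of TYMS. It was lowest in G1, at 23.0 and 22.8 CPM, against 30.6 and 30.5 in S and 32.9 and 33.2 in G2/M. The columns of the 3 phases did not overlap. The log2 ratio was 0.41 in S against G1 (0.28 to 0.55, 1.33-fold) and 0.53 in G2/M against G1 (0.39 to 0.66, 1.44-fold). For G2/M against S it was 0.11, with an interval of -0.01 to 0.23 that includes 0. The ratios against G1 were the highest among the 9 genes, and Dctd rested on the fewest fragments, 735 in G1.

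Dut (ENSMUSG00000027203, chr2:125247190-125258608, + strand) splits deoxyuridine triphosphate to the monophosphate and so keeps uracil out of DNA. Its columns read 138.9 and 136.5 CPM in G1, 132.1 and 131.8 in S, and 105.7 and 105.0 in G2/M. The G2/M columns were well below the rest, 1.25-fold against S (log2 ratio -0.33, -0.39 to -0.26) and 1.31-fold against G1 (-0.39, -0.45 to -0.32). In S against G1 the ratio was -0.06 (-0.12 to -0.00), and its sign turned to 0.16 when ratios were taken relative to genes of like exon length, described below.

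Tyms (ENSMUSG00000025747, chr5:30058202-30073617, - strand) encodes thymidylate synthase. Its columns read 96.7 and 95.1 CPM in G1, 77.9 and 78.8 in S, and 61.3 and 60.6 in G2/M. The log2 ratio was -0.29 in S against G1 (-0.37 to -0.22), -0.36 in G2/M against S (-0.44 to -0.28) and -0.65 in G2/M against G1 (-0.73 to -0.57). Of the genes at a mean of 50 CPM or more, 19.3% had a ratio farther from 0 in the last of these.

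Tk1 (ENSMUSG00000025574, chr11:117815526-117826092, - strand) encodes the cytosolic kinase of thymidine. It had the largest difference of the 9 genes between S and G1. Its columns read 89.6 and 90.4 CPM in G1, 62.0 and 63.4 in S, and 54.5 and 54.3 in G2/M, with no overlap between phases. The log2 ratio was -0.52 in S against G1 (-0.60 to -0.44, 1.44-fold lower), -0.20 in G2/M against S (-0.29 to -0.12) and -0.73 in G2/M against G1 (-0.81 to -0.64). Genes between 50 and 100 CPM had robust SDs of 0.54, 0.46 and 0.56 in these comparisons. Of the genes at a mean of 50 CPM or more, 24.7%, 59.9% and 15.7% had a ratio farther from 0 than Tk1. Of its 5198 exon bases, 83 (1.60%) are shared with Afmid on the opposite strand, and no setting for strand is named in the file's header. The other 8 genes share no exon bases with another gene.

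Dck (ENSMUSG00000029366, chr5:88764996-88783281, + strand) encodes the kinase of deoxycytidine, which also accepts deoxyadenosine and deoxyguanosine. Its columns read 97.5 and 90.8 CPM in G1, 86.7 and 79.9 in S, and 29.8 and 30.5 in G2/M. Both G2/M columns, with 536 and 557 fragments, lay far below the other 4, which had 1442 to 1555. In G2/M against S the log2 ratio was -1.47 (-1.57 to -1.37), and in G2/M against G1 it was -1.64 (-1.74 to -1.54). In S against G1 it was -0.18 (-0.25 to -0.10), and pairs of single columns gave -0.29 to -0.07. Of genes at a mean of 50 CPM or more, 0.237% had a ratio farther from 0 in G2/M against S and 1.52% in G2/M against G1. Among genes between 50 and 100 CPM, 2.43% were 2-fold or more lower in G2/M against S and 3.92% in G2/M against G1. Leaving out any 1 column kept the ratio between -1.52 and -1.40 against S and between -1.69 and -1.59 against G1. The 2 columns of a phase count as 1 library, so these ranges reflect little more than counting error.

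Beside each other, the salvage kinases differed in order between phases. Per kilobase of exon, Dck was 1.44 times Tk1 in G1 (1.37 to 1.51), 1.83 times in S (1.73 to 1.93) and 0.761 times in G2/M (0.706 to 0.820). In CPM, Dck was at 94.2 against 90.0 for Tk1 in G1, 83.3 against 62.7 in S and 30.1 against 54.4 in G2/M. Tyms and Tk1, which supply thymidylate by separate routes, had ratios of 0.909, 1.07 and 0.956 in G1, S and G2/M. The length counts all annotated exons, so which gene is above within a phase depends on the exons these cells use. The counting intervals do not cover that.

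Samhd1 (ENSMUSG00000027639, chr2:157097533-157135265, - strand) encodes the hydrolase that removes the triphosphate from deoxynucleotides and so lowers their pools. Its columns read 117.4 and 118.5 CPM in G1, 124.2 and 124.5 in S, and 131.7 and 130.4 in G2/M. The phases did not overlap, but the steps were small. The log2 ratio was 0.08 in S against G1 (0.01 to 0.14), 0.08 in G2/M against S (0.02 to 0.13) and 0.15 in G2/M against G1 (0.09 to 0.21). Taken relative to genes of like exon length, the values were -0.20 in S against G1 and -0.03 in G2/M against G1, the opposite direction. Per kilobase, Rrm2 was 25.2 times Samhd1 in G1, 21.1 times in S and 22.7 times in G2/M.

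**Figure D2:**
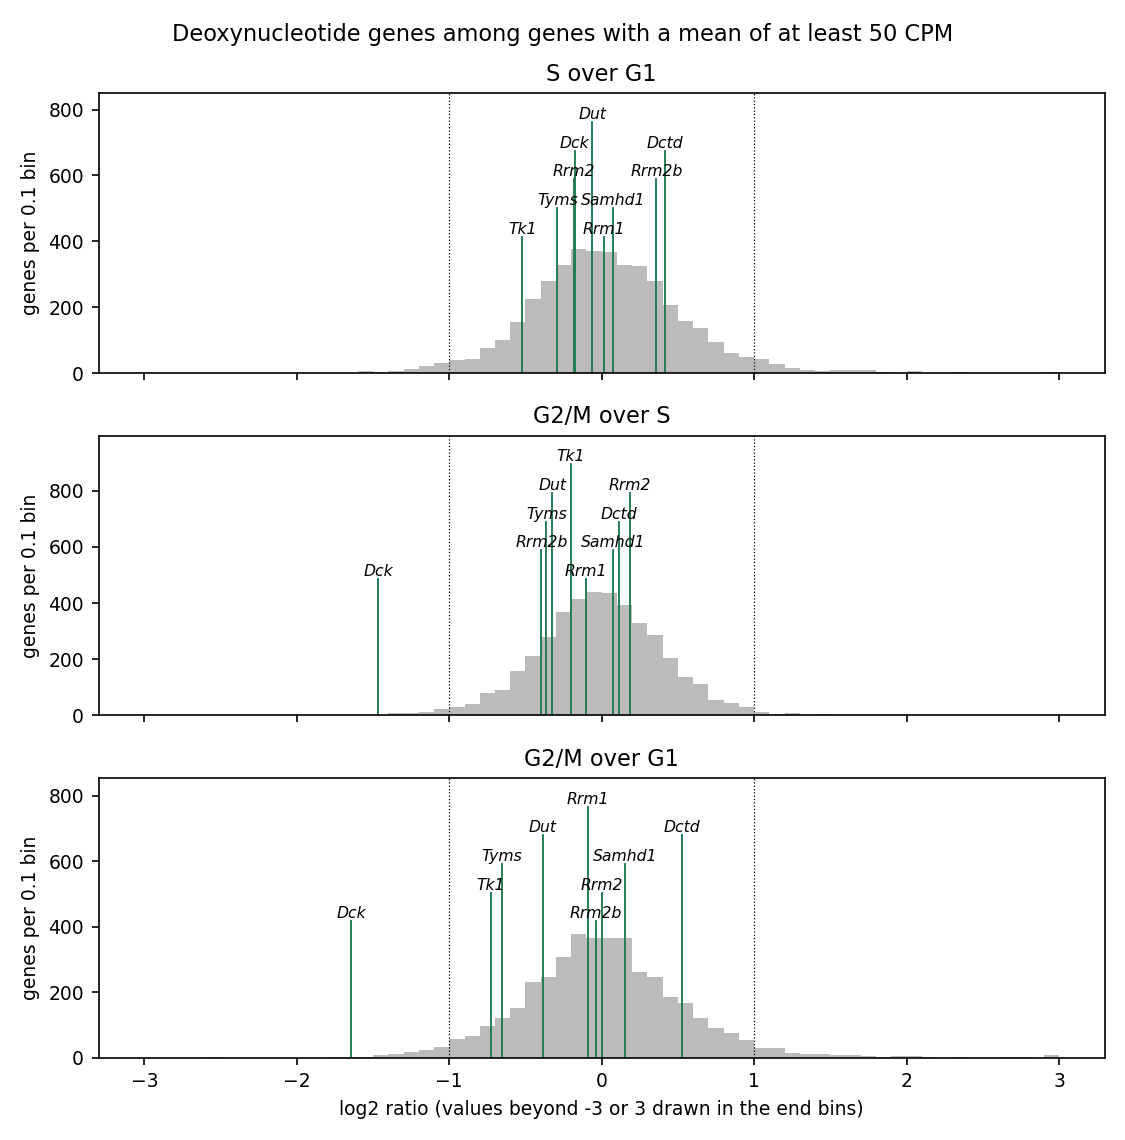
Grey bars count genes whose mean reached 50 CPM by their log2 ratio (horizontal axis) in the 3 comparisons, green lines mark the 9 deoxynucleotide genes (Rrm2b and Dctd are below that level), and dotted lines mark 2-fold; line heights serve only to space the names. Dck lies at -1.47 in G2/M against S and -1.64 in G2/M against G1, and the other 8 genes lie inside the dotted lines in each panel.

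Ratios moved with gene length in these libraries. Among genes at a mean of 50 CPM or more, split into 5 equal classes by exon length, the median log2 ratio of S against G1 went from -0.22 in the shortest class (up to 2616 bases) through -0.08, -0.02 and 0.14 to 0.28 in the longest (from 7936 bases). Dut, with 2410 exon bases, is in the shortest class and Samhd1, with 9150, in the longest. With each ratio taken relative to its own class, Dck had -1.48 in G2/M against S and -1.57 in G2/M against G1, and Tk1 had -0.50 in S against G1. Rrm2 went to -0.10 and Rrm2b to 0.22 in S against G1, and Tyms to -0.43.

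Compared per kilobase of exon, which allows levels of different genes to be set side by side, Rrm2 led in each phase with 324.9, 286.4 and 325.5 CPM per kilobase in G1, S and G2/M. That was 58.5%, 56.3% and 63.6% of the sum over the 9 genes. Rrm1 came next with 89.6, 90.4 and 84.3, then Dut with 57.1, 54.8 and 43.7. In G1 the order went on with Dck at 24.9, Tk1 at 17.3, Tyms at 15.7, Samhd1 at 12.9, Dctd at 6.72 and Rrm2b at 5.89, and no neighbours had overlapping counting intervals. In S, Dck at 22.03 was followed by Samhd1 at 13.6, Tyms at 12.9 and Tk1 at 12.1, whose intervals overlapped with their neighbour's, then Dctd at 8.96 and Rrm2b at 7.55. In G2/M Samhd1 followed Dut at 14.3, and Tk1 at 10.5, Tyms at 10.01 and Dctd at 9.69 could not be ordered within counting error. Dck came after them at 7.97, above only Rrm2b at 5.74. The length is that of all annotated exons of a gene together, so a gene with long exons that these cells do not use reads too low on this scale.

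**Figure D3:**
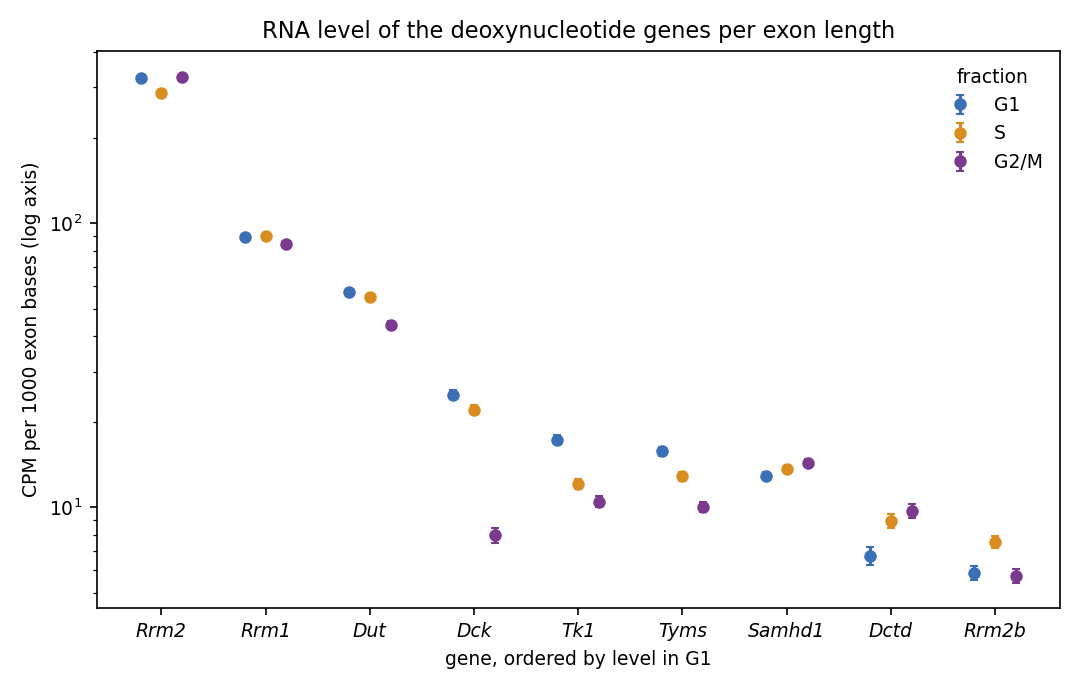
Level per kilobase of exon (CPM per kilobase, log axis) of the 9 genes in G1, S and G2/M, with 95% counting intervals. Rrm2 leads at 286.4 to 325.5, and Dck is next after Dut in G1 and S but next to last in G2/M, at 7.97.

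The phase labels were set against genes of known phase. Of 7 G1/S genes, 6 were 2-fold or more lower in S than in G1 and 0 higher, with a median log2 ratio of -1.63, and 6 were 2-fold or more lower in G2/M than in G1. Cdc6, which loads the replicative helicase, read 140.3 CPM in G1, with 11.2 in S and 24.2 in G2/M. Pcna, the sliding clamp, read 407.6, 183.2 and 170.0 CPM in the same order. Of 9 G2/M genes, 5 were 2-fold or more higher in S than in G1, 4 in G2/M than in S and 8 in G2/M than in G1, with a median of 2.17 in the last. Ccnb1, the mitotic cyclin B1, read 74.3, 242.4 and 390.3 CPM. The 9 deoxynucleotide genes had medians nearer to 0 than both marker lists in S against G1 and in G2/M against G1. Between G2/M and S the G1/S genes had a median of 0.11, with Cdc6 and Cdt1 2-fold or more higher in G2/M, while Dck was 2-fold or more lower.

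**Figure D4:**
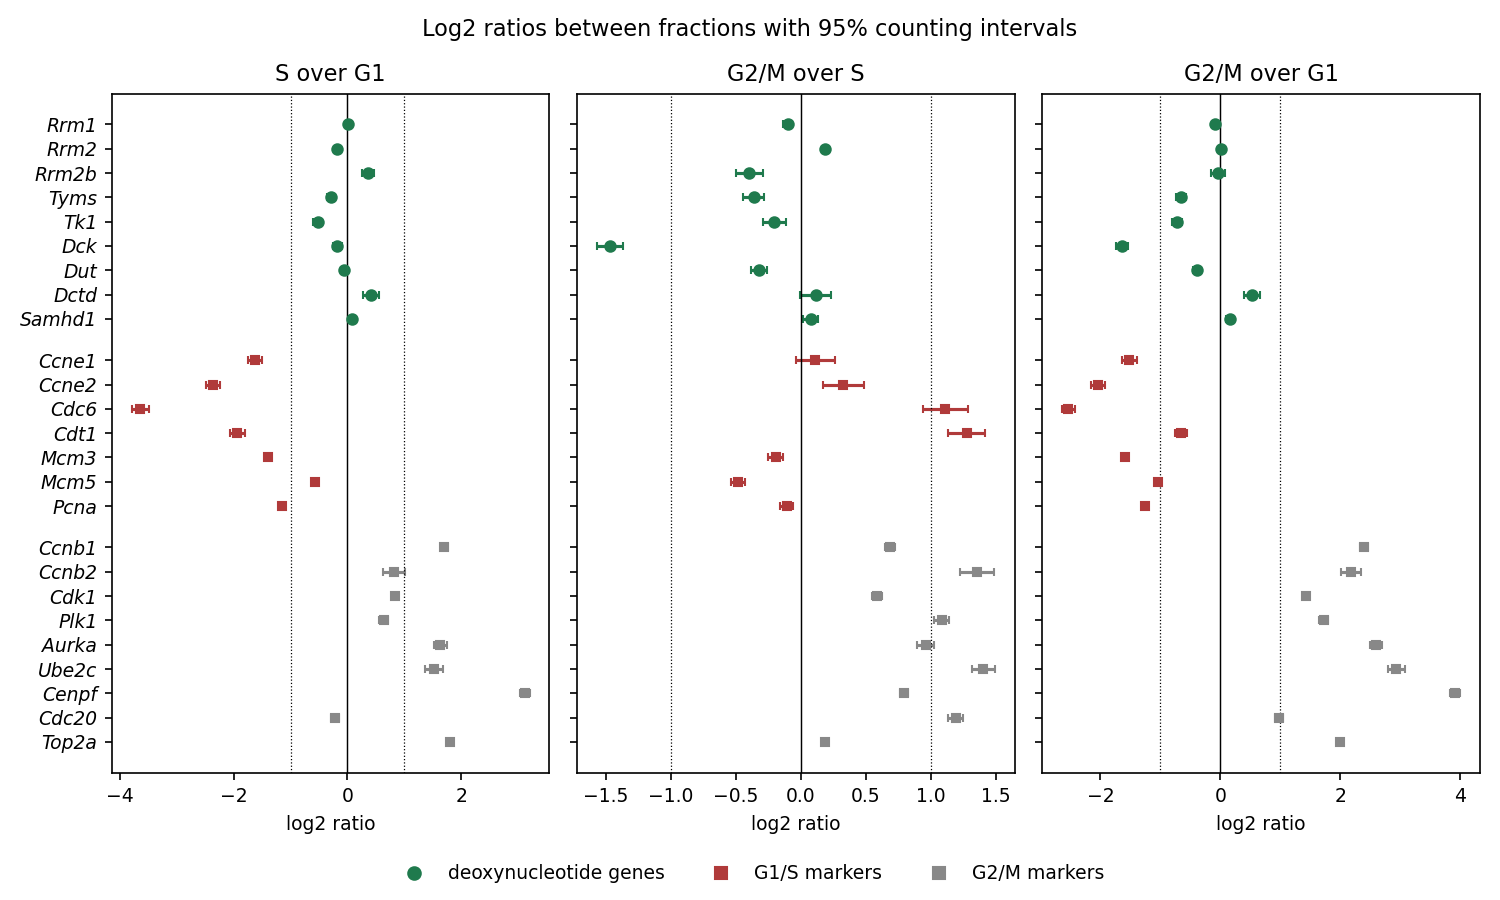
Log2 ratios of the 9 deoxynucleotide genes, the 7 G1/S genes and the 9 G2/M genes in the 3 comparisons, each point a gene with its 95% counting interval. In G2/M against G1 the G1/S genes lie at -2.54 to -0.66 and the G2/M genes at 0.98 to 3.91, and the deoxynucleotide genes lie at -1.64 to 0.53.

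Further along the pathway, 36 genes of nucleotide kinases, phosphatases, salvage enzymes and carriers were listed, and 35 were in the table. At the level used for the call, 20 were tested in S against G1, with 0 at 2-fold or more higher, 2 lower by as much and a median log2 ratio of -0.30. In G2/M against S 1 of 20 was 2-fold higher and 1 lower, with a median of -0.04. In G2/M against G1, 2 of 21 were 2-fold higher, 5 lower, and the median was -0.30. Over all genes, 17.2%, 13.7% and 19.8% differed by 2-fold in either direction in these comparisons, and 8.59%, 6.60% and 9.81% were lower. Those shares stand beside each list below as well. Slc25a33, a mitochondrial carrier of pyrimidine nucleotides, read 24.1 CPM in G1, with 0.977 in S and 8.22 in G2/M. Dctpp1, which removes deoxycytidine triphosphate and its damaged forms, read 15.4, 3.71 and 6.48 CPM. Nt5c, a deoxyribonucleotidase that opposes the kinases, read 31.2, 22.3 and 13.2 CPM.

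Nme6, of the nucleoside diphosphate kinase family, was also 2-fold or more lower in G2/M than in G1, at 9.54 against 24.5 CPM. Dera, which degrades deoxyribose phosphate, read 11.3 CPM in G1, with 13.6 in S and 4.85 in G2/M. In the other direction, Tk2, the mitochondrial thymidine kinase, read 4.30, 7.23 and 11.2 CPM, against the course of Tk1. Nudt1, which clears oxidised purine triphosphates, read 4.27, 4.58 and 17.9 CPM. Most of these genes are near 10 CPM, where 33.8% of genes between 10 and 20 CPM differed by 2-fold between S and G1.

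Dtymk, which takes thymidylate on to the diphosphate, was read as well, although outside the rule for naming and picked after its values were seen. It had 69.4 CPM in G1, with 56.6 in S and 51.4 in G2/M, the same order as Tyms and Tk1, with a log2 ratio of -0.43 in G2/M against G1.

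Of 13 folate cycle genes, 11 were tested in S against G1, with 0 at 2-fold lower and a median log2 ratio of -0.10. In G2/M against S, 1 of 12 was 2-fold higher (Mthfd2l), 0 were 2-fold lower, and the median was 0.22. In G2/M against G1, 0 of 12 were 2-fold lower, Slc19a1 was among those 2-fold higher, and the median was 0.16. Slc19a1, the reduced folate carrier, had 9.64 CPM in G1, with 19.2 in S and 36.8 in G2/M. Mthfd2l, a mitochondrial folate enzyme, had 9.70, 5.69 and 17.8 CPM, and Shmt1, the cytosolic serine hydroxymethyltransferase, 32.4, 23.6 and 37.7 CPM.

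Of 13 genes of purine synthesis, 0 differed by 2-fold between S and G1, and 1, Adssl1, was 2-fold or more lower in G2/M, at 0.772 CPM against 17.4 in G1 and 19.7 in S. Adss, the related enzyme of the same step, had 344.7, 399.6 and 408.7 CPM in G1, S and G2/M. Adsl, which acts after it, had 75.7, 39.9 and 55.7 CPM, and Gmps, the last step to guanylate, 214.7, 153.9 and 196.6 CPM. The medians were -0.12 in S against G1, 0.03 in G2/M against S and -0.15 in G2/M against G1.

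Of 8 pyrimidine genes, 7 were tested. Umps, the last enzyme to uridylate, had 97.8 CPM in G1, with 43.2 in S and 73.3 in G2/M, and Uck1, a uridine and cytidine kinase, 34.0, 7.98 and 17.98 CPM. These were the 2 genes at least 2-fold lower in S than in G1, while 5 of the 7 had a ratio below 0. The median over all genes tested was -0.01 in that comparison. Dhodh, the mitochondrial step, was 2-fold or more lower in G2/M, at 4.96 CPM against 18.2 in G1 and 14.1 in S. The CTP synthases Ctps (244.7, 265.6 and 234.3 CPM) and Ctps2 (17.9, 17.9 and 27.3 CPM) were within 2-fold in every comparison. The list's medians were -0.28 in S against G1, 0.28 in G2/M against S, where Uck1 was 2-fold or more higher, and -0.42 in G2/M against G1.

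The thioredoxin and glutaredoxin systems include the electron donors of ribonucleotide reductase, and 7 of their genes were listed. Of these, Txnrd2, of mitochondria, was the 1 gene at least 2-fold lower in S than in G1, at 3.21 against 12.4 CPM. It was at 10.6 CPM in G2/M. The ratio of S to G1 was below 0 on the log2 scale for 6 of the 7, while the median over all genes tested was -0.01. Txnrd1, the cytosolic thioredoxin reductase, had 918.7, 1001.2 and 870.5 CPM. Glrx2 had 26.0, 25.3 and 21.0 CPM, and Gsr, the glutathione reductase, had 214.9, 138.3 and 127.96 CPM. The medians of this list were -0.20, -0.11 and -0.22 in the 3 comparisons.

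Among 14 genes that regulate the pathway, 2 were 2-fold or more higher and 3 lower in S than in G1, 0 differed by 2-fold between G2/M and S, and 4 were 2-fold or more higher and 3 lower in G2/M than in G1. Those 2-fold lower were E2f1 and E2f2, activators of S-phase genes, and Chek1, the replication checkpoint kinase. E2f1 had 153.5 CPM in G1, with 62.3 in S and 59.6 in G2/M, E2f2 had 45.4, 15.5 and 10.9 CPM, and Chek1 had 87.6, 30.9 and 33.5 CPM. Ccnf, the cyclin F that marks RRM2 for destruction in G2, had 12.4, 76.0 and 99.1 CPM. Fzr1, the CDH1 activator of the anaphase-promoting complex that marks RRM2 and TK1, had 21.2, 70.2 and 106.4 CPM. E2f8, a repressor, had 40.3, 62.8 and 89.8 CPM, and Lin54, a DNA-binding subunit of the MuvB complex, 17.5, 29.6 and 47.6 CPM. The medians were -0.20 in S against G1, 0.37 in G2/M against S and 0.17 in G2/M against G1.

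**Figure D5:**
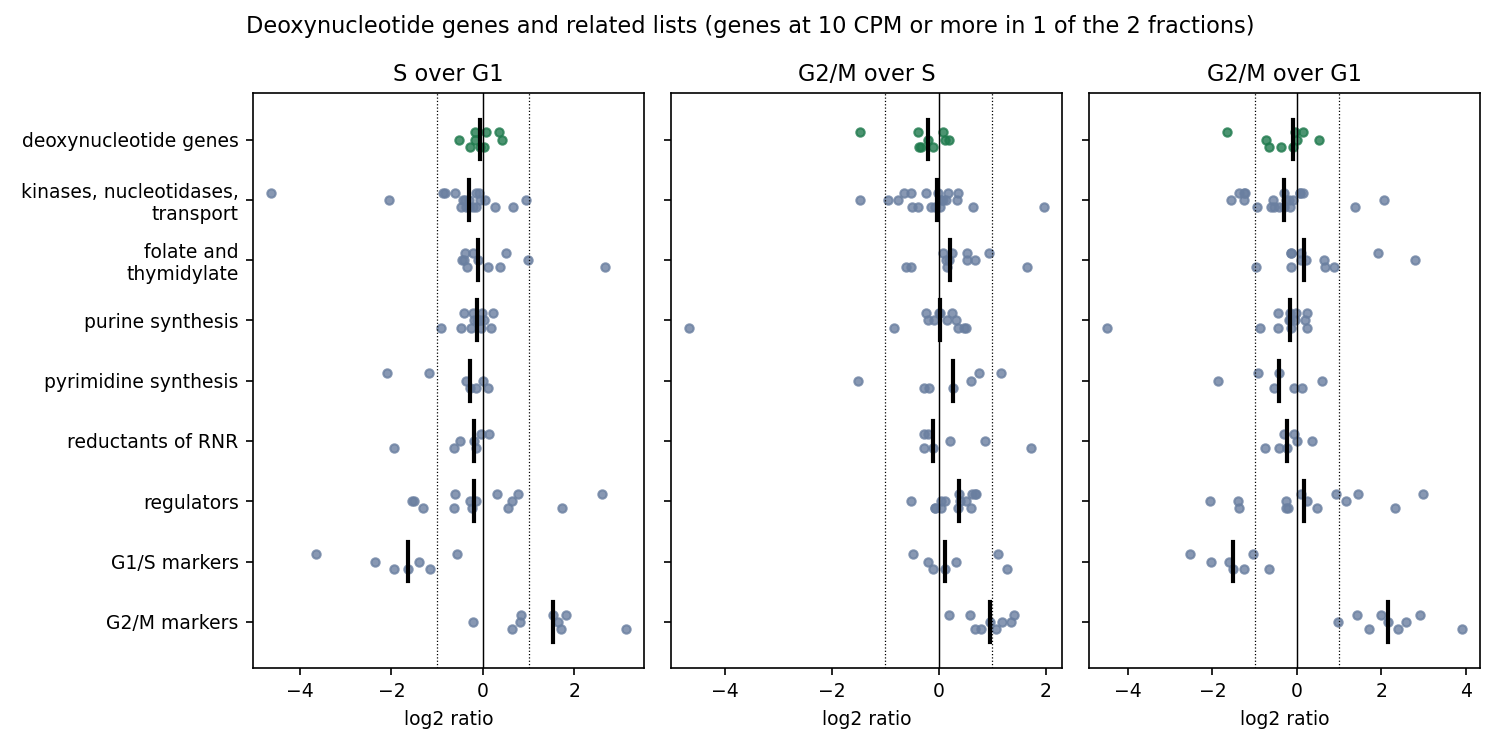
Log2 ratios of the genes in each related list in the 3 comparisons, each point a gene at 10 CPM or more in 1 of the phases and each bar the list's median. The medians of the pathway lists lie between -0.42 and 0.37, and single genes such as Slc25a33 (-4.63 in S against G1) lie far from them.

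For each of the 7 deoxynucleotide genes at a mean of 50 CPM or more, the genes with the nearest pattern were found by Euclidean distance in the log2 ratios of S and of G2/M against G1, over 3 libraries and 4191 genes. Dck had 0 genes within a distance of 0.1, and its nearest were R3hdm4 at 0.217, Trim39 and Lrfn4. R3hdm4 read 293.0, 256.5 and 109.0 CPM in G1, S and G2/M. Tk1 had 27 within 0.1, the nearest being mt-Nd2, Tmem109 and Rfwd3, and Tyms had 39, the nearest being Zfas1, Nr3c1 and Fnip2. For Dut the count was 95, Gpat4 among them. For Rrm2 it was 98, led by Ybx1, Crebbp and Ywhab. For Samhd1 it was 134, led by Zmat2, Psmc6 and Pls3. For Rrm1 it was 138, led by Actr2, Ranbp3 and Zfand3. A likeness over 3 libraries is a weak description, and patterns near 0 have many neighbours because most genes lie there.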

How the data were processed

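RNA-seq counts came from 6 columns, 2 for each of 3 phases, while 24 ChIP-seq samples were not analysed here. The authors deposited counts of read pairs (fragments) per gene. Per the file headers, featureCounts 1.5.0-p3 counted them in exons of an Ensembl annotation (GRCm38), with no option for strand, overlaps or multiple mapping. Per the labels' protocols, paired reads had 101 cycles. The submitters' processing notes also list deepTools 3.5.0, Bowtie2 2.3.0, R 4.0.1, SAMtools 1.6 and HISAT2 2.1.0, without a role.

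The columns of a phase were summed (32395232 fragments in G1, 35822319 in S, 35907974 in G2/M) and scaled with TMM factors of 0.990, 1.00 and 1.01 from edgeR 4.0.16 in R 4.3.3, over 12971 genes with at least 10 fragments in 1 library. A count under 3 was set to 3. Ratios have exact 95% binomial intervals and levels exact Poisson intervals. The ratios, their intervals and the calls were tested on simulated counts with Poisson noise alone and known library sizes. That checks the arithmetic, and not the TMM scaling, PCR copies or the spread between cultures. Symbols were matched for 45143 genes.

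The genes and lists were chosen with earlier results of these data known. Named are all 9 genes, and some genes the naming rule gives are not reported here. From each list come the 2 genes with the highest and the 2 with the lowest ratio of S to G1 at 10 CPM, any gene at 2-fold, and for each gene at 50 CPM the 3 nearest in pattern. Alternatives were other scalings (DESeq2 1.42.0 among them), filters, levels, folds, length centring and single columns.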

Additional observations from a re-analysis of the deposited data

How the results depend on the processing

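Calls on the 9 genes kept their number under every alternative run except the lower fold: at 1.5-fold, 3 were lower in G2/M than in G1 (Dck, Tk1 and Tyms) in place of 1. Over all genes the counts depended on level and fold. The numbers called higher and lower were 757 and 754 in S against G1, 623 and 578 in G2/M against S, and 888 and 868 in G2/M against G1. Asking for a mean of 50 CPM gave 129 and 91, 40 and 58, and 160 and 114. Asking for no minimum gave 2407 and 2004, 1789 and 2245, and 2223 and 2295, and at 1.5-fold 1625 and 1609, 1408 and 1349, and 1786 and 1735. Leaving out 1 column at a time gave 745 to 765 higher and 746 to 769 lower in S against G1, 606 to 632 and 572 to 587 in G2/M against S, and 880 to 905 and 858 to 876 in G2/M against G1. The columns of a phase count as 1 library, so these ranges reflect little more than counting error.

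Of the 27 ratios of the 9 genes, 27 stayed within their counting interval with DESeq2 size factors and 26 with library size alone. Centring on exon length moved 10 and turned the sign of 3, Dut (0.16) and Samhd1 (-0.20) in S against G1 and Samhd1 (-0.03) in G2/M against G1. Near 0, Rrm2 in G2/M against G1 turned sign without either G2/M column and without ribosomal protein and mitochondrial genes, and Rrm2b turned to 0.01 without the first G1 column.

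No paired analysis was possible because the columns of a phase were counted as 1 library and no result comes from a test. With 1 library per phase, depth limits only the counting error. It is smallest for Rrm2 and largest for Dctd, and the spread between cultures is not known from these data.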

Other observations

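Several salvage genes too low for the comparisons above had large differences in fragments, and they were picked after their values were seen. Dguok, the mitochondrial kinase of deoxyguanosine, had 193, 155 and 14 fragments in G1, S and G2/M. Tymp, the thymidine phosphorylase, had 71, 4 and 0, where the count of 0 was set to 3 fragments for ratios, or 0.0827 CPM. Upp1, the uridine phosphorylase, had 35, 307 and 93. Such differences are usual at this level: of genes with a mean between 1 and 5 CPM, 78.5% differed by 2-fold or more in S against G1, 75.4% in G2/M against S, and 82.9% in the comparison of G2/M with G1.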
